A study of Mus musculus with 12 samples.

Results

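The genes examined were 10 transcription factor genes that direct blood cells into their lineages, and the measurement was the occupancy of YY1 at their loci in bone marrow progenitors of female mice with and without Xist. The genes were listed by name, with earlier results of these data known, and the rule itself uses no measured value: Spi1, Cebpa, Cebpb, Gfi1 and Irf8 as myeloid factors, Klf1 and Gfi1b as erythroid factors, Ikzf1 and Ebf1 as lymphoid factors, and Myb, a factor of progenitors of several lineages, which was kept apart. They are 10 of 21755 protein-coding genes measured in the same way. A locus was the gene body in GENCODE M21 (mm10) with 50 kb on each side, and its YY1 peaks were those of the lists deposited for the 4 YY1 ChIP-seq libraries. The 4 lists merged into 19768 regions, of which 53 lay at the 10 loci. The question was where YY1 sat at these loci and whether this differed between the genotypes.

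All 4 libraries were made with lineage-negative (Lin-) cells from the bone marrow of female mice, 3 months old, on a 129Sv4/Jae x B6 background, with 2 libraries from wild-type (WT) mice and 2 from XistΔ/Δ mice. In the XistΔ/Δ mice a floxed Xist gene was deleted with Vav-iCre, a Cre driven by sequences of the blood gene Vav1, so the deletion was made in blood cells and not in the whole animal. Whether WT mice also carried the Cre is not given in the labels. Lin- cells are what remains of the marrow after cells with surface markers of mature granulocytes, macrophages, red cells and lymphocytes were removed, and they are a mixture of stem cells and progenitors in which peaks cannot be assigned to a lineage. In such a mixture, fewer cells with YY1 at a site and less YY1 per cell cannot be told apart. Peak lists hold no expression, so the labelled cell type could not be checked against markers.

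YY1 is a zinc-finger DNA-binding protein that occupies both promoters and enhancers of many genes and can help bring them together. It also binds the Xist locus. The lineage factors act in small networks in which they activate or repress each other: Spi1 (PU.1) and the C/EBP proteins drive myeloid fate, Klf1 drives the globin and red cell program, and Ikzf1 (Ikaros) and Ebf1 drive lymphoid and B cell fate. Several of these genes are known to depend on enhancers far from their promoters, among them an element far upstream of Spi1 and elements downstream of Cebpa and Irf8.

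The deletion was seen in the lists. The region over the Xist start site (chrX:103481123-103484345) held YY1 peaks of 3083 and 3222 bp in WT replicates 1 and 2 and no peak in either XistΔ/Δ library. Depth followed the replicate number: the lists held 9553 and 15933 peaks in the WT pair of libraries (replicates 1 and 2), against 10075 and 18113 in XistΔ/Δ replicates 1 and 2, from 24.9, 50.0, 23.1 and 59.5 M tags. The width of a peak, the stretch over which HOMER joined windows above its tag threshold, was the only graded value that the lists held. Its median over a list was 892 and 925 bp in WT, against 777 and 892 bp in XistΔ/Δ. Depth and replicate number cannot be told apart here, so values are given for every library, and differences between genotypes also within each replicate number.

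Sequences that matched the YY1 motif were read first, to show which of the occupied regions hold one. The motif searched was AANATGGC, where N is any base, on both strands. Each of the following sites lay in a region called at a member's own promoter or at a distal position in at least 2 of the 4 libraries. They are written on the strand of the motif with the matching bases in capitals and 11 bases on each side, from GRCm38.p6.
Spi1, far upstream, chr2:91080303-91080332: ttgtgtagttgAAGATGGCtttgaacttct
Spi1, promoter, chr2:91097283-91097312: gttctgggttgAAGATGGCgagggcggctc
Cebpa, distal, chr7:35151024-35151053, minus strand: catcacggatcAAAATGGCttcctggtctg
Cebpa, distal, chr7:35156765-35156794: tcagaacaggaAAGATGGCaccagagatat
Gfi1, distal, chr5:107749680-107749709, minus strand: tcatgtgttgcAATATGGCgaagggatatt
Irf8, promoter, chr8:120736089-120736118, minus strand: gggctgccccaAAAATGGCcggggggctgg
Irf8, distal, chr8:120793224-120793253: agcacccaagaAAGATGGCggatgtaggga
Ikzf1, promoter, chr11:11688731-11688760: aaatataaaatAAAATGGCttctctgtaat
Ikzf1, promoter, chr11:11690780-11690809, minus strand: ctttgcttttgAAAATGGCggcaagtgtca
Ikzf1, promoter, chr11:11691211-11691240: taaaattccacAAGATGGCtcctttgacct
Ikzf1, distal, chr11:11751194-11751223, minus strand: aagccatttagAAAATGGCggcagtggaat
Myb, distal, chr10:21076664-21076693, minus strand: aattttatcaaAAGATGGCttagtcggcca

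Over whole regions, 4 of the 11 own-promoter regions and 6 of the 11 distal regions of the members that were called in at least 2 libraries held a match. These shares, 36.4% and 54.5%, stand beside 29.0% of the 10886 TSS-proximal regions and 27.4% of the 3279 distal regions of all chromosomes. Regions differ in length, so the same search was made in 300 bases at the midpoint of each: 1 of 11 own-promoter regions (9.09%) and 3 of 11 distal regions (27.3%) then held a match, beside 9.15% and 15.6% of all TSS-proximal and distal regions. These are counts over few regions, and no test was made. A match shows that the letters are there, and its absence shows no more than that these letters are not in the window.

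The promoters themselves differed in composition. RefSeq promoter windows (GRCm38.p6, 250 bases before to 50 after a start) were matched by symbol for 9 of the 10 members. The ratio of observed to expected CpG, that is, of CpG pairs to the number that the C and G content would give, was 1.06 at the start of Ikzf1, 1.03 at Cebpb, 1.03 at Irf8, 0.952 at Myb and 0.853 at Cebpa. It was 0.152 at Klf1 and 0.492 at Gfi1b, the erythroid factors, and the median of all 32851 promoter windows was 0.384. The classes overlapped in this ratio, since the windows of the myeloid gene Gfi1 had 0.641 and 0.412, on both sides of Gfi1b. The second windows of Irf8 and Ikzf1 were low as well, at 0.357 and 0.111. Ebf1, which had no promoter peak, had ratios of 0.954 and 0.819 in its windows, above both values of Gfi1. Of the members' 13 windows, 1 held the motif (7.69%, beside 6.05% of all windows). It was the second window of Irf8, which lies outside the called region. The windows of Ikzf1, with the widest YY1 peak of the members, and of Klf1 are shown for their contrast in composition. Any motif match would be in capitals, and neither window holds one. The Klf1 window lies outside the called region of Klf1 (chr8:84902648-84903630), which was 68.0% GC with 88 CpG pairs. The Ikzf1 window lies inside the called region of Ikzf1, which was 47.0% GC with 252 CpG pairs over 7586 bp. The contrast is thus one of the windows and not of the called regions.
Ikzf1, chr11:11685675-11685974, plus strand: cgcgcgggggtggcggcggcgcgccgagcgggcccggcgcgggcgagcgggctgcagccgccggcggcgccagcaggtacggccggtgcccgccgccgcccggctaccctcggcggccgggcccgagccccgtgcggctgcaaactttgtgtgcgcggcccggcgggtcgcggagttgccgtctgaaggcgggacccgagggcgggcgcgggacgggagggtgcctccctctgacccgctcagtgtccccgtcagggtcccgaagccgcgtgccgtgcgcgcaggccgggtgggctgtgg
Klf1, chr8:84901732-84902031, plus strand: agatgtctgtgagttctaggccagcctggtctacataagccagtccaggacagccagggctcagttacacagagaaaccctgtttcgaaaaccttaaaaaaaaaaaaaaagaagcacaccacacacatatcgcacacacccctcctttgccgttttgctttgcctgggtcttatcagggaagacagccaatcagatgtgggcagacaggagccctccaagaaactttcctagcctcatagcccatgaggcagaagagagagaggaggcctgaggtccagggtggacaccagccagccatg

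YY1 was found at most of these loci, at the factors' own promoters and away from them, and the 53 regions were of 3 kinds. A region within 3 kb of an annotated start site of the member was an own-promoter region (14 regions), a region within 3 kb of a start site of other genes only was another gene's promoter (19 regions), and the remaining 20 regions were distal. Of the 53, 37 were called in at least 2 libraries, 18 in all 4, and 16 in a single library. Over all 19768 merged regions, 14168 were called in at least 2 libraries, 39.2% in all 4, and 28.3% in a single library. At the members, the regions called in all 4 libraries were 7 of the 14 own-promoter regions, 9 of the 19 at other promoters, and 2 of the 20 distal ones. The map of regions by distance from the start site shows where they lie.

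**Figure D1:**
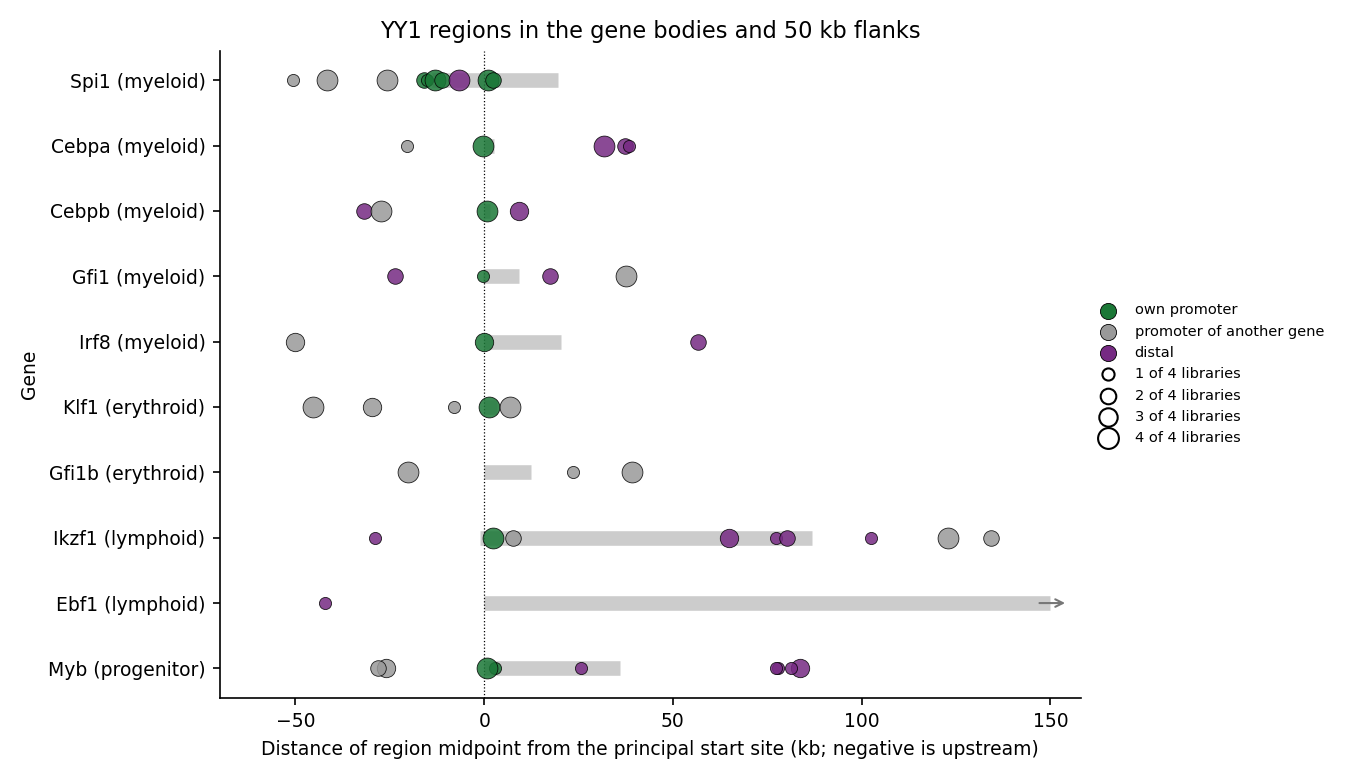
YY1 regions at the 10 loci, as the distance of each region's midpoint from the principal start site of the gene (x axis, kb) for each gene (y axis). Grey bars are gene bodies (the arrow marks that Ebf1 goes on beyond the axis), colour gives the kind of region and dot size the number of libraries with a peak. Distal regions (purple) are seen at all 5 myeloid genes and at neither erythroid gene, and the only region of Ebf1 was called in 1 library.

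Own-promoter peaks were called at 6 and 7 of the 10 genes in WT replicates 1 and 2 and at 7 and 8 in XistΔ/Δ replicates 1 and 2. Of all protein-coding genes, 39.9%, 48%, 39.8% and 49.3% had one in the same libraries. A region called in all 4 libraries was present at 6 of the 10 members (Spi1, Cebpa, Cebpb, Klf1, Ikzf1 and Myb), beside 36.1% of all protein-coding genes. Gfi1 and Irf8 had own-promoter peaks in some libraries only, and Gfi1b and Ebf1 in none.

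**Figure D2:**
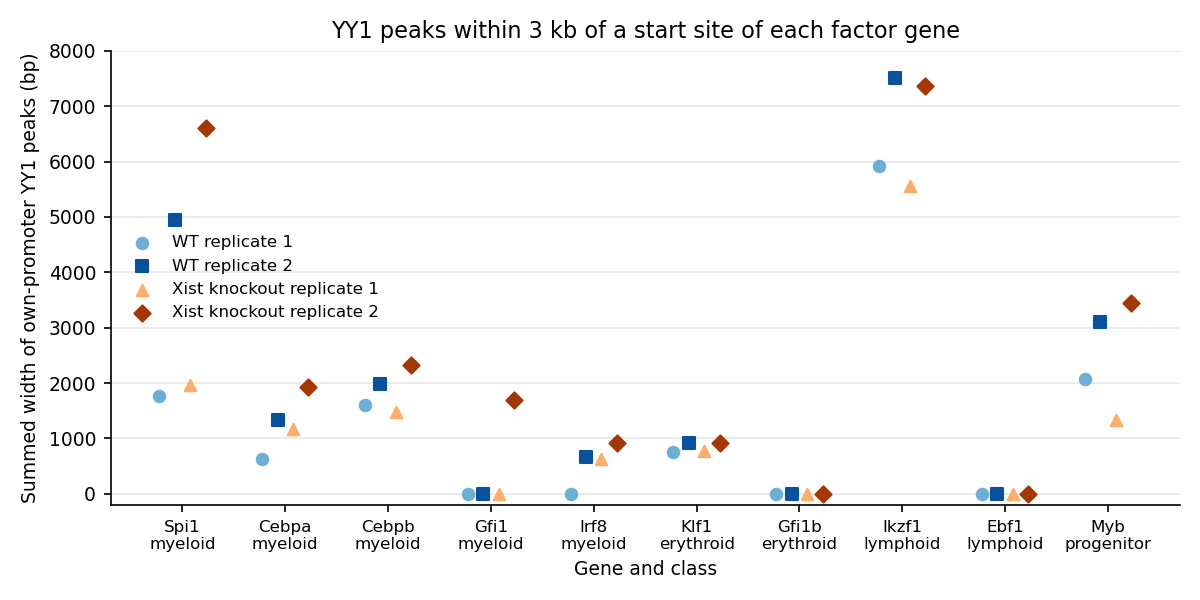
Summed width of own-promoter YY1 peaks (y axis, bp) of each member (x axis, with its class) in each of the 4 libraries, where 0 is no peak. Ikzf1 was the widest in each library (5561 to 7500 bp), the replicate 2 library lay above the replicate 1 library of the same genotype at each gene with a peak in more than 1 library, and Gfi1b and Ebf1 were at 0.

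Spi1, which encodes PU.1, the factor required for myeloid and B cell development, had 2 separate groups of own-promoter regions. One lay at the principal start site, that of the main protein-coding transcript. Its region chr2:91096206-91097845 (exon with UTR and coding sequence) held peaks of 968 and 1498 bp in the WT pair of libraries (replicates 1 and 2), against 1190 and 1640 bp in XistΔ/Δ replicates 1 and 2. A narrower region beside it, in an intron, was called in the replicate 2 libraries only (501 and 642 bp).

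The other group surrounded a start site far upstream that GENCODE annotates for minor transcripts of Spi1, and would be distal if the principal start site alone were counted. Its main region, chr2:91081959-91084011, was centred 13.1 kb upstream of the principal start site, and measured 799 and 1526 bp in WT, against 771 and 2053 bp in XistΔ/Δ. It was called in all 4 libraries, and its widths overlapped between the genotypes. It was flanked by regions centred 11.3 kb upstream (914 bp in WT replicate 2 and 962 bp in XistΔ/Δ replicate 2) and 15.9 kb upstream (501 and 635 bp in the same libraries), and by 1 at 15.0 kb that was called in XistΔ/Δ replicate 2 only (674 bp). In the replicate 2 libraries the upstream group was wider in sum than the group at the principal start site, with 2941 bp against 1999 bp in WT and 4324 bp against 2282 bp in XistΔ/Δ. In the replicate 1 libraries it was narrower, with 799 bp against 968 bp in WT and 771 bp against 1190 bp in XistΔ/Δ.

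Summed over both groups, the own-promoter width of Spi1 was 1767 and 4940 bp in WT, against 1961 and 6606 bp in XistΔ/Δ. It was higher in XistΔ/Δ by 194 bp within replicate number 1 and by 1666 bp within replicate number 2, and the replicates of 1 genotype differed by more than that (two-sided exact permutation test, p = 0.667, n = 2 per genotype). With 2 against 2 libraries the smallest p that this test can give is 0.3333, so no difference between genotypes could pass a usual threshold here.

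Cebpa, the factor that commits progenitors to granulocytes and monocytes, had a single own-promoter region (chr7:35118012-35119942) over its start site. The summed widths were 633 and 1329 bp in the WT pair of libraries (replicates 1 and 2), against 1172 and 1931 bp in XistΔ/Δ replicates 1 and 2, where replicate 1 of XistΔ/Δ had 2 peaks and the other libraries 1. The mean was 981 ± 492 bp in WT and 1551.5 ± 537 bp in XistΔ/Δ (SD, n = 2 each). The width was higher in XistΔ/Δ by 539 bp within replicate number 1 and by 602 bp within replicate number 2. The genotypes nevertheless overlapped, since WT replicate 2 lay above XistΔ/Δ replicate 1 (two-sided exact permutation test, p = 0.667).

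Cebpb, a C/EBP factor of macrophages and of granulocyte production under stress, had a wider promoter peak than Cebpa in all 4 libraries. Its region, chr2:167688398-167690727, covers the whole single-exon gene and measured 1601 and 1982 bp in WT, against 1482 and 2330 bp in XistΔ/Δ. The genotypes differed in opposite directions within the replicate numbers, by -119 and 348 bp.

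Gfi1, a repressor needed for neutrophil development, had an own-promoter peak in a single library. It was 1703 bp wide in XistΔ/Δ replicate 2, the deepest library, over the start site (chr5:107725204-107726906), and the other 3 libraries had none. Irf8, which directs monocyte and dendritic cell development, had a promoter region (chr8:120735882-120736845) with no peak in WT replicate 1, 673 bp in WT replicate 2, and 632 and 914 bp in XistΔ/Δ replicates 1 and 2. Its motif match, printed above, ends directly before the first base of the RefSeq promoter window. The Irf8 values of the genotypes overlapped, and Irf8 was the narrowest of the myeloid promoters with a peak in at least 2 libraries.

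Klf1, the activator of the adult globin genes, had an own-promoter region that did not cover its start site. It overlapped coding exon sequence, was centred 1.21 kb downstream of the start (chr8:84902648-84903630), and held 88 CpG pairs and no match of the motif. Its widths were the most similar among libraries of all the members: 761 and 921 bp in WT, against 767 and 911 bp in XistΔ/Δ, which is 841 ± 113 bp against 839 ± 102 bp (SD, n = 2 each). Gfi1b, the repressor that erythroid cells and megakaryocytes require, had neither an own-promoter nor a distal peak in any library.

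Ikzf1, which encodes Ikaros, a factor of lymphoid progenitors that is also made in stem cells and myeloid progenitors, had the widest own-promoter YY1 occupancy of the 10 genes in each of the 4 libraries. The region runs over 7586 bp from just before the first start site into the gene (chr11:11684665-11692250). The summed widths were 5921 and 7500 bp in WT, against 5561 and 7369 bp in XistΔ/Δ, at percentiles from 99.8 to 99.9 among the 7846 genes with an own-promoter region in all 4 libraries. It was called as 1 peak of 7369 bp in XistΔ/Δ replicate 2 and as 2 peaks in WT replicate 2, the wider of 6729 bp. The shallower libraries broke it into 5 peaks (WT replicate 1, the widest 1873 bp) and 3 peaks (XistΔ/Δ replicate 1, the widest 2205 bp). Ranked by the widest single peak among 14168 regions called in at least 2 libraries, it was 10th and 8th in the replicate 2 libraries of WT and XistΔ/Δ, and 864th and 231st in the replicate 1 libraries. The difference of XistΔ/Δ from WT was -360 bp within replicate number 1 and -131 bp within replicate number 2, which is less in size than the difference between replicates of 1 genotype (two-sided exact permutation test, p = 0.667, n = 2 per genotype). Ebf1, the factor that specifies B cells, had no own-promoter peak in any library although it is the longest of the genes (391 kb).

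Myb, the factor that keeps progenitors of many lineages dividing, had a promoter region (chr10:21158672-21161901) that measured 2077 and 3105 bp in WT, against 1331 and 2948 bp in XistΔ/Δ. With a second region in the first part of the gene that was called only in XistΔ/Δ replicate 2 (501 bp), the sum in that library was 3449 bp. The sum was lower in XistΔ/Δ within replicate number 1 (by -746 bp) and higher within replicate number 2 (by 344 bp).

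Over all 10 genes the summed own-promoter width was 12760 and 20450 bp in WT, against 12906 and 25213 bp in XistΔ/Δ. The XistΔ/Δ mean was higher by 2454.5 bp, with 146 bp within replicate number 1 and 4763 bp within replicate number 2 (two-sided exact permutation test, p = 0.667, n = 2 per genotype). Compared with the median over the 7846 genes, which was 1147.5, 1664, 1024 and 1656 bp in WT replicates 1 and 2 and XistΔ/Δ replicates 1 and 2, Ikzf1, Spi1 and Myb lay above the median in all 4 libraries and Klf1 below it in all 4. Cebpb lay above it in all 4 as well, at percentiles from 64.2 to 77.9. For Spi1 the placing counts the upstream group of regions together with the group at the principal start site. With the principal start site alone, Spi1 fell below the median in WT replicate 1 (968 bp). It stayed above the median in WT replicate 2 (1999 bp), XistΔ/Δ replicate 1 (1190 bp) and XistΔ/Δ replicate 2 (2282 bp). The median counts every annotated start site of a gene. Cebpa lay at percentiles of 11.4 and 31.8 in WT and of 62.0 and 62.6 in XistΔ/Δ, which did not overlap between the genotypes, while its widths in bp did. The share of the 7846 genes whose percentiles lie apart in this way was not computed, so this separation has no background beside it. It holds for the summed width, to which XistΔ/Δ replicate 1 brings 2 peaks. The widest single peak of the Cebpa promoter lay at percentiles of 25.4 and 70.4 among the peaks of the WT lists, against 39.9 and 89.3 in XistΔ/Δ, which overlap. No test was made on percentiles. The widest peak was also ranked among regions called in at least 2 libraries, for all kinds of region at the loci. Its percentile was higher in XistΔ/Δ within both replicate numbers at 8 of the 18 regions in all 4 libraries and lower within both at 4. Over all regions in 4 libraries these shares were 24.3% and 26.4%. The 8 were 5 own-promoter regions and 3 at other genes' promoters, and the 4 were 1 own-promoter region, 2 at other genes' promoters and 1 distal. The Ikzf1 promoter was among the 8, although its summed width was lower in XistΔ/Δ within both replicate numbers. Ranked among the peaks of each list instead, 10 of the 18 were higher and 2 lower, beside 37.5% and 16.3% of all such regions, so the split depends on the ranking used.

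**Figure D3:**
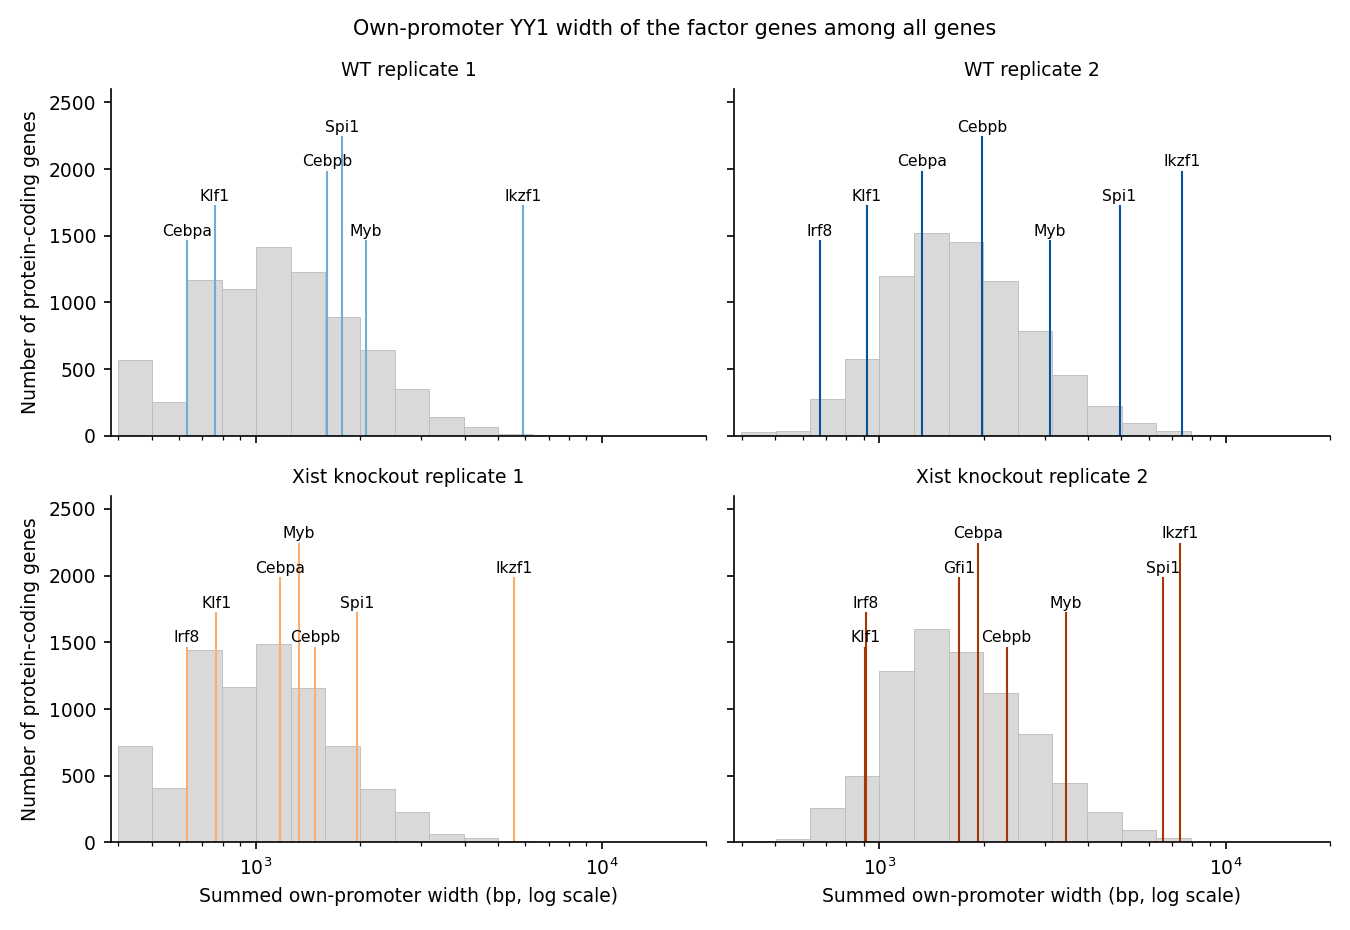
Summed own-promoter width of the members (coloured lines, log x axis in bp) on the distribution over the 7846 protein-coding genes with an own-promoter region in all 4 libraries (grey bars, number of genes on the y axis), 1 panel per library. Ikzf1 lies in the upper tail of every panel, while Klf1 lies in the lower part, and Irf8 (where it has a peak) lies at percentiles from 1.29 to 15.1.

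Away from the annotated start sites of any gene, YY1 was found at every myeloid factor, at Ikzf1 and at Myb, and at neither erythroid factor. Distal regions called in at least 2 libraries numbered 8 at the myeloid factors, where each of the 5 genes had at least 1. There were 2 at the lymphoid factors, both at Ikzf1, 1 at Myb, and none at Klf1 or Gfi1b. In all, 7 of the 10 members had one, beside 20.4% of all protein-coding genes. Per 100 kb of window, the median was 1.83 for the myeloid genes, 0 for the erythroid genes and 0.53 for the lymphoid genes, and 0.74 for Myb, while the median of all protein-coding genes was 0. The distal class leaves out regions within 3 kb of another gene's start site. Such regions called in at least 2 libraries numbered 3 at Klf1 and 2 at Gfi1b. Among the myeloid genes there were 2 at Spi1, 0 at Cebpa, and 1 at each of Cebpb, Gfi1 and Irf8. Ikzf1 had 3, Ebf1 0 and Myb 2. The density uses the whole window, and the part of it that could hold a distal region was not measured. Classes of 1 to 5 genes allow a description only. The counts rest on the deeper libraries: without WT replicate 2 the myeloid count was 4 and the lymphoid count 1, and without XistΔ/Δ replicate 2 they were 3 and 1. The erythroid count was 0 in each case.

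The distal regions found in all 4 libraries were at Spi1 and Cebpa. At Spi1 the region lay in an intron of the long transcripts, 6.79 kb upstream of the principal start site (chr2:91088892-91089721), with 501 and 765 bp in WT, against 501 and 754 bp in XistΔ/Δ, so that the values followed the replicate number. The width of 501 bp was the most frequent of both replicate 1 lists, held by 19.5% of peaks in WT and 24.0% in XistΔ/Δ. At Cebpa the region was intergenic, 31.7 kb downstream of the start (chr7:35150639-35151426), with 713 and 767 bp in WT, against 626 and 781 bp in XistΔ/Δ. Over all chromosomes, 19.5% of distal regions called in at least 2 libraries were called in all 4. The central 300 bases of both are shown, since they are the distal sites that each library called. Capitals mark the motif, which the Cebpa window holds on the minus strand and the Spi1 window lacks.
Spi1, chr2:91089157-91089456, plus strand: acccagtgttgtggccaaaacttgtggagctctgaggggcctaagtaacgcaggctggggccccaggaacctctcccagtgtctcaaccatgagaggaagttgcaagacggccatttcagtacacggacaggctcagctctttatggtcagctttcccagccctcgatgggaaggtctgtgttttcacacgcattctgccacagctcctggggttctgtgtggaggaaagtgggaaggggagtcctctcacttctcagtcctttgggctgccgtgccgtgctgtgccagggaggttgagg
Cebpa, chr7:35150883-35151182, plus strand: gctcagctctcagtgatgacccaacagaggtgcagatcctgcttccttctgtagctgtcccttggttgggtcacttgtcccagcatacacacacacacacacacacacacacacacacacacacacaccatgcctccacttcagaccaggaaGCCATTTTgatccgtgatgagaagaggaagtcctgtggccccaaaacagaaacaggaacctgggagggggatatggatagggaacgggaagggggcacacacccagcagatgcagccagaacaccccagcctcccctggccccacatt

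Cebpa had further downstream regions in the deeper libraries: 1 at 37.4 kb (501 bp in WT replicate 2, 627 bp in XistΔ/Δ replicate 2), which holds a motif match, and 1 at 38.3 kb in XistΔ/Δ replicate 2 only (501 bp). At Cebpb the widest distal region lay 9.26 kb downstream and overlapped an exon of the noncoding gene A530013C23Rik (632 and 628 bp in WT, no peak and 771 bp in XistΔ/Δ). Another lay 32.0 kb upstream in an intron of Tmem189 (501 and 770 bp in the replicate 2 libraries). Gfi1, despite its lack of a promoter peak in 3 libraries, had a distal region on each side. The downstream one at 17.4 kb was called in the replicate 2 libraries (772 bp in WT, 501 bp in XistΔ/Δ). The upstream one at 23.7 kb, in an intron of Evi5, was called in WT replicate 1 (501 bp) and XistΔ/Δ replicate 2 (793 bp). The distal region of Irf8 lay 56.6 kb downstream of its start (chr8:120792541-120793363), with 770 bp in WT replicate 2 and 786 bp in XistΔ/Δ replicate 2 and no peak in the replicate 1 libraries.

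The widest distal region of the members in WT and in XistΔ/Δ replicate 2 was that of Myb. It lay 83.6 kb from the start, beyond the far end of the gene in an intron of Ahi1 (chr10:21076654-21078040), and measured 1001 and 1143 bp in WT, 1387 bp in XistΔ/Δ replicate 2 and no peak in XistΔ/Δ replicate 1. Ikzf1 had an intronic region 65.0 kb downstream of its start (chr11:11750747-11751633) with the same pattern: 501 and 751 bp in WT, no peak in XistΔ/Δ replicate 1, and 812 bp in XistΔ/Δ replicate 2. A second intronic region of Ikzf1 at 80.2 kb was called at 501 bp in both replicate 2 libraries. The only YY1 region of Ebf1 in its 491 kb window was a peak of 501 bp, the most frequent width of the list, 42.1 kb upstream in XistΔ/Δ replicate 2.

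**Figure D4:**
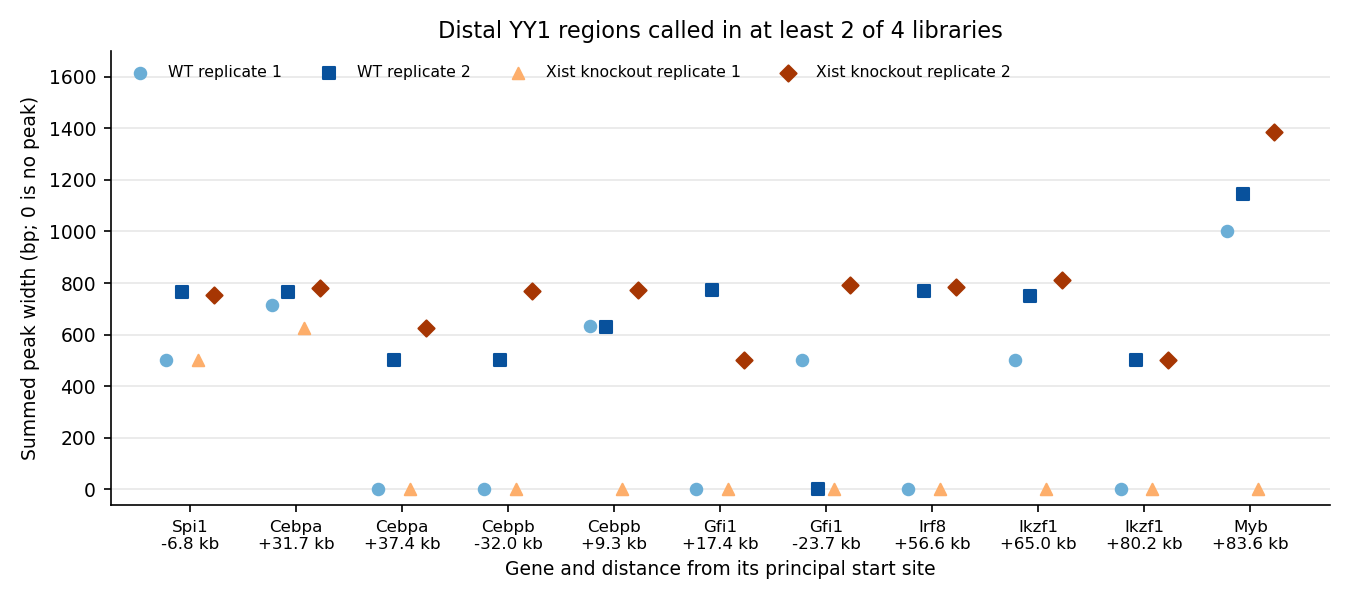
Summed peak width (y axis, bp, 0 is no peak) of the 11 distal regions called in at least 2 of 4 libraries, named by gene and distance from its principal start site (x axis). The Spi1 region 6.79 kb upstream and the Cebpa region 31.7 kb downstream had a peak in each library, and XistΔ/Δ replicate 1 had no peak at the other 9 regions.

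The number of distal peaks was 7 and 12 in the WT pair of libraries (replicates 1 and 2), against 2 and 17 in XistΔ/Δ replicates 1 and 2. On average the genotypes had equal numbers (9.5 ± 3.54 in WT and 9.5 ± 10.6 in XistΔ/Δ, SD, n = 2 each), and the difference was -5 within replicate number 1 and 5 within replicate number 2 (two-sided exact permutation test, p = 1). Distal peaks made up 23.3% and 29.3% of the members' peaks in WT, against 8% and 34.7% in XistΔ/Δ. Over all peaks of the same lists the distal share was 10.4% and 25.9% in WT, against 13.9% and 29.8% in XistΔ/Δ. In XistΔ/Δ replicate 1 the share at the members thus lay below that of its whole list, and in the other 3 libraries above it. Of the 7 member regions called in 3 libraries, 4 lacked a peak in XistΔ/Δ replicate 1 (3 of them distal) and 3 in WT replicate 1. These libraries are the shallow ones, and the part of depth in these absences was not tested.

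**Figure D5:**
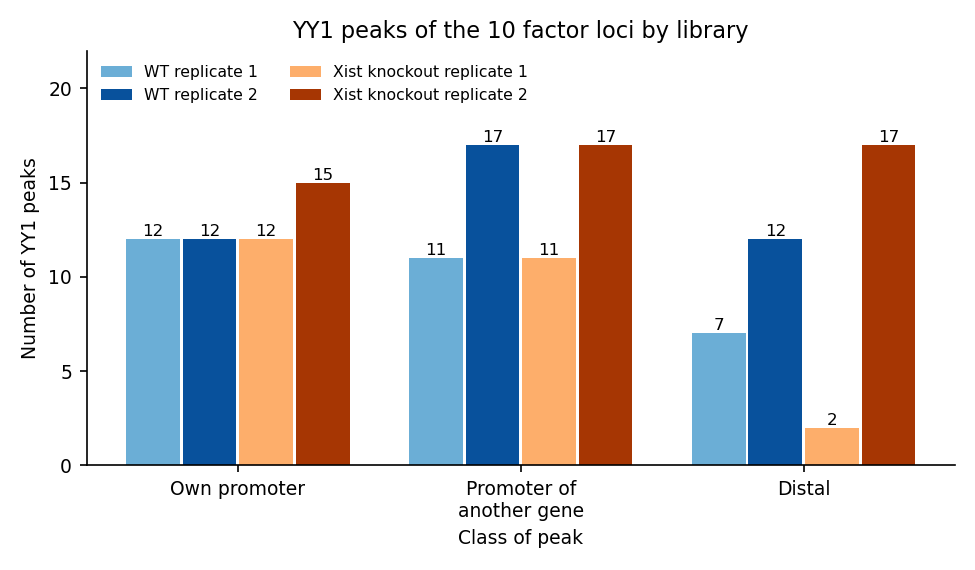
Number of YY1 peaks at the 10 loci (y axis, from 0) by class of peak (x axis) and library (bars). Own-promoter peaks numbered 12, 12, 12 and 15, peaks at other genes' promoters 11, 17, 11 and 17, and distal peaks 7, 12, 2 and 17 in WT replicates 1 and 2 and XistΔ/Δ replicates 1 and 2.

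Across all kinds, the loci held 30 and 41 peaks in WT, against 25 and 49 in XistΔ/Δ, which is 35.5 ± 7.78 against 37 ± 17.0 (SD, n = 2 each, two-sided exact permutation test, p = 1). This was 0.314% and 0.257% of all peaks in WT and 0.248% and 0.271% in XistΔ/Δ. No region at the 10 loci was specific to a genotype, that is, called in both libraries of 1 genotype and in neither of the other. Over all 14168 regions called in at least 2 libraries, 1.24% were specific to XistΔ/Δ and 0.452% to WT. Presence of peaks also followed the replicate number: 11 of the 53 regions were called in the replicate 2 pair only and 11 in XistΔ/Δ replicate 2 only, and over all 19768 regions these shares were 18.0% and 18.6%. Of the 18 regions in all 4 libraries, 17 were wider in WT replicate 2 than in WT replicate 1 and 18 were wider in XistΔ/Δ replicate 2 than in XistΔ/Δ replicate 1. The same share over all 7757 regions in 4 libraries was not computed. The median own-promoter width over the 7846 genes was also greater in replicate 2. It was 1147.5 and 1664 bp in WT replicates 1 and 2, and 1024 and 1656 bp in XistΔ/Δ replicates 1 and 2.

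Widths lay apart between the genotypes at 1 of the 18 regions. It was not at a member's own promoter but at that of Tsc1, a growth regulator whose gene lies near Gfi1b (chr2:28640487-28643727), with 2608 and 3241 bp in WT, against 1422 and 2249 bp in XistΔ/Δ. Over all 7757 regions in 4 libraries, 5.88% were wider in both WT libraries and 1.71% in both XistΔ/Δ libraries. The count at the members was 1 and 0.

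The neighbours supplied 15 of the 37 regions called in at least 2 libraries. All YY1 peaks of the Gfi1b locus belonged to neighbours, with Tsc1 on one side and Gtf3c5, a subunit of a transcription factor of RNA polymerase III, on the other (1610 and 1589 bp in WT, 896 and 1657 bp in XistΔ/Δ). At Klf1 they were Farsa, a subunit of phenylalanyl-tRNA synthetase, Syce2, a gene of the meiotic synaptonemal complex, and Dnase2a, a nuclease that digests the DNA of expelled red cell nuclei. Farsa was the widest of these, with 2814 and 3832 bp in WT, against 2568 and 3584 bp in XistΔ/Δ, while Klf1 itself never exceeded 921 bp. The others were Psmc3, Gm13778 and Slc39a13 beside Spi1, Tmem189, Gm14320 and Gm20431 beside Cebpb, 5830411K02Rik and Gm26692 beside Gfi1, Gm33142 beside Irf8, Gm12000, Fignl1 and Ddc beside Ikzf1, and Gm33619 and Gm40608 beside Myb.

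A list of 21 further lineage factors was read in the same way. An own-promoter region in all 4 libraries was present at 11 of them (52.4%): the myeloid Cebpd, Klf4, Egr1 and Nfil3, the erythroid and megakaryocytic Zfpm1, Nfe2, Ldb1, Bcl11a and Klf3, and the lymphoid Tcf3 and Foxo1. By class this was 4 of 6, 5 of 7 and 2 of 8. No library had a peak at the promoters of Gata1, Sox6, Bcl11b, Tcf7, Gata3 or Lef1, 4 of which are factors of T cells or their progenitors. Promoter presence at erythroid factors was 5 of 7 in this list and 1 of 2 among the members. In the erythroid class Bcl11a was the widest in each library (4906 and 7246 bp in WT, 2401 and 6820 bp in XistΔ/Δ). Bcl11a is a repressor of fetal globin that B cells also require. In the lymphoid class Foxo1 was the widest in 3 libraries (1491 and 2501 bp in WT, 1681 bp in XistΔ/Δ replicate 2), and in XistΔ/Δ replicate 1 it measured 1045 bp beside 1080 bp at Tcf3. In the myeloid class the widest gene differed among libraries: Egr1 in WT replicate 1 (2321 bp), Nfil3 in both replicate 2 libraries (2846 bp in WT, 3421 bp in XistΔ/Δ) and Cebpd in XistΔ/Δ replicate 1 (1801 bp). Distal regions called in at least 2 libraries numbered 8, at 5 of the 21 genes. There were 4 at 2 of the 6 myeloid genes (Egr1 and Nfil3), 3 at 2 of the 7 erythroid genes (Nfe2 and Klf3) and 1 at 1 of the 8 lymphoid genes (Ikzf3). The contrast seen among the members, with distal regions at every myeloid factor and at no erythroid factor, was thus not present in this list.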

How the data were processed

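YY1 was profiled by ChIP-seq in 4 Lin- bone marrow samples (2 per genotype). The 8 histone mark samples of the series were not analysed here. Per the study's methods, the authors digested chromatin with micrococcal nuclease, trimmed reads with TrimGalore, aligned them to mm10 with Bowtie2 2.3.5.1, removed reads of low mapping quality (SAMtools 1.10) and duplicates, and called peaks with HOMER (4.9.1 in the submitters' processing notes, with no version given for this step in the methods). Per the file headers, findPeaks ran on each library separately, with a size of 500 bp, a minimum distance of 500 bp, a false discovery rate of 0.001, a 4 fold excess over the local background, and no input library. Open chromatin and copy number were therefore not controlled for. Every peak carries the same score, 1, in the deposited lists, so the score was not used, no tag count per peak was used, and positions and widths were used.

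Peaks sharing at least 1 bp were merged over the 4 lists. A peak took the class of its region: within 3 kb of a TSS (GENCODE M21) of the member, of another gene only, or distal. Regions called in at least 2 libraries were kept as consensus regions. The principal TSS was that of the APPRIS principal transcript with a CCDS, the most upstream where several tied. Values per library were compared by a two-sided exact permutation test (smallest p 0.333). The labels do not say whether replicates are separate animals, and the paper calls them biological replicates. A p-value is the share of relabellings of these libraries with a difference at least as large, and does not extend to other animals. Replicate numbers were those of the labels. The names in the file headers number them otherwise, and share 1 number per replicate. Members, classes and lists were chosen with earlier results of these data known. Named were all members with their values, neighbours with a promoter region called in at least 2 libraries, and of the other factors those with a promoter region in all 4 libraries, those with none, and the widest of each class. Motif matches and sequences came from RefSeq and GRCm38.p6. No peak ran past a chromosome end of that assembly. Merging, testing and the motif search were checked on simulated data. Python 3 with numpy and scipy was used.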

Additional observations from a re-analysis of the deposited data

How the results depend on the processing

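The higher mean in XistΔ/Δ of the number of peaks at the members (1.5) was not stable. It became -2 with lists of equal length (the 9553 widest peaks, or, chosen after seeing the data, the first 9553 in list order), and ranged from -10.5 (without XistΔ/Δ replicate 2) to 13.5 (without XistΔ/Δ replicate 1) when a library was left out, with -4 without WT replicate 1. Summed own-promoter width (2454.5 bp) ranged from -3699 to 8608 bp without the same libraries, with -1390.5 bp without WT replicate 1, and was 2700 bp without Ikzf1 and 1777 bp at principal start sites only. The number of distal peaks (difference 0) ranged from -7.5 to 7.5 without a library, was -2.5 and -1.5 with equal lists by width and by list order, and 0.5 and 3 within 25 and 100 kb. Their summed width (139 bp) ranged from -5170 to 5448 bp, with -1808 bp without WT replicate 1, and was -1489.5 and -720 bp with the same equal lists. With the replicate block the differences were unchanged and the exact permutation p-values were 1 for peaks and distal peaks and 0.5 for own-promoter width, the smallest that the block allows. With 2 pairs, the numbers were not shown to pair the samples.

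Regions specific to a genotype numbered 0, and 0 to 4 without a library, when 1 genotype has a single library. With equal lists by width there were 2, the Irf8 promoter in XistΔ/Δ and the Syce2 promoter in WT. Both have a peak in 3 of the deposited lists, and the limit on width removed the peaks of 673 and 716 bp of a replicate 2 library. The myeloid count of distal regions (8) was 4 within 25 kb, 13 within 100 kb, 2 for regions in all 4 libraries, and 3 to 8 without a library. The erythroid count (0) was 2 within 100 kb and 1 with Myb counted as erythroid, and 0 to 0 without a library. The lymphoid count (2) was 4 with promoters of 1 kb, 0 for regions in all 4 libraries, and 1 to 2 without a library. Distal regions with a motif match fell from 6 to 3 in the central 300 bases. Of the 96 alternative values computed, 62 kept their direction or stayed within 1.5 times, 24 moved (beyond 1.5 times, or to or from 0) and 10 reversed. The 62 include the values with the replicate block, which keep the same difference by design and could not fail. They also include all those for members and other factors with a promoter region in every library (6 to 7 and 11 to 12). Causes were not tested. Depth and replicate number cannot be told apart, so the part of depth in the counts of distal and single-library peaks was not tested, and without tag counts a narrow peak and a weak one cannot be told apart.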

Other observations

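Matches of the motif were also counted at the neighbours. The Farsa promoter region in the Klf1 window (chr8:84854532-84858363) held 5 matches over its whole length and none in its central 300 bases, and the Psmc3 promoter region in the Spi1 window (chr2:91053676-91055007) held 2. Of the 15 neighbour promoter regions called in at least 2 libraries, 4 held a match (26.7%). The Farsa region was also the widest of the neighbours in WT replicate 2, at 3832 bp.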
